A study of Mus musculus with 8 samples.

Results

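Glucose uptake and glycolysis were followed in mouse dendritic cells through 10 genes, chosen by name from the 23356 genes of the deposited table. They cover the main steps by which a cell takes up glucose, turns it into pyruvate and lactate, and exports the lactate: the glucose transporter *Slc2a1*, the hexokinases *Hk1*, *Hk2* and *Hk3*, the phosphofructokinase regulator *Pfkfb3*, the phosphofructokinases *Pfkl* and *Pfkp*, the phosphoglycerate kinase *Pgk1*, the lactate dehydrogenase *Ldha* and the lactate transporter *Slc16a3*. The cells were bone marrow-derived dendritic cells (BMDCs), grown for 6 days with GM-CSF and IL-4 from mice labelled as C57BL/6, which the methods give as C57BL/6N. WT and GEF-H1-/- BMDCs, the latter lacking *Arhgef2*, which encodes the microtubule-bound RhoA exchange factor GEF-H1, were left untreated or treated for 5 h with 100 nM ansamitocin-P3, a maytansine derivative that depolymerizes microtubules. RNA-seq was performed on 2 libraries in each of the 4 groups, 8 in all. The knockout is a germline targeted allele, so all cells of those cultures carried it and not the dendritic cells alone, and the labels do not say whether the 2 libraries of a group came from separate mice. Ages and sexes of the mice were not given in the labels.

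Resting dendritic cells rely largely on mitochondrial respiration, and activation by microbial products is known to bring on glucose uptake and lactate production within hours. Glucose enters through facilitative transporters, is trapped in the cell by hexokinase, and passes the committed step at phosphofructokinase, whose activity is set in part by fructose 2,6-bisphosphate made by the PFKFB enzymes. Lactate dehydrogenase regenerates NAD+ from pyruvate, and monocarboxylate transporters carry the lactate out with a proton. Hypoxia-inducible factor 1 (HIF-1) is a known transcriptional activator of many of these genes.

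The table gives 1 expression value per gene and group, in FPKM (fragments normalized for transcript length and for the size of the library). Cuffdiff pooled the duplicate libraries to give it, and adds the bounds of a 95% interval. Differences between groups therefore carry no test, SD or n, and are described by the fold of FPKM, by the log2 ratio of FPKM + 1 and by whether the intervals of the 2 groups overlapped. A gene was counted as higher or lower when the log2 ratio passed 1 in either direction, and as apart when the intervals did not overlap. All 10 genes passed the filter of 1 FPKM in at least 1 group, which left 11397 genes as background. The intervals of the 10 genes spanned between 36.6% and 47.6% of the FPKM, with a median of 40.4%. The targeted gene followed the labels: *Arhgef2* stood at 42.3 FPKM (34.5–50.0) in untreated and 45.9 FPKM (36.9–54.9) in treated WT DCs, against 4.59 FPKM (3.54–5.63) and 4.16 FPKM (3.22–5.11) in the GEF-H1-/- groups. All 7 dendritic cell markers were detected, with a sum between 4498 and 6711 FPKM, nearly all of it from *Cd74*, *H2-Aa* and *H2-Ab1*. The other dendritic cell markers went both ways between untreated and treated WT cultures. *Itgax* was at 102 and 132 FPKM and *Zbtb46* at 14.8 and 22.1 FPKM, while *Ciita* was at 23.4 and 11.3 FPKM and *Flt3* at 2.10 and 1.07 FPKM. The neutrophil markers, with *S100a8* and *S100a9* making up nearly all of the sum, came to 30316 FPKM in untreated WT, 35748 FPKM in treated WT, and 20984 and 21446 FPKM in untreated and treated GEF-H1-/- cultures, and 5 of the 6 listed markers were in the table with none at 0. The other neutrophil markers went both ways between untreated WT and GEF-H1-/- cultures: *Elane* was at 20.7 and 45.9 FPKM and *Mpo* at 26.4 and 63.1 FPKM, while *Camp* was at 189 and 15.0 FPKM. Macrophage markers, 4 of 5 of them in the table and none at 0, summed to 54.9 FPKM without and 34.2 FPKM with the drug in WT cultures, and to 58.4 and 48.5 FPKM in GEF-H1-/- cultures. Mast cell and basophil markers summed to between 94.6 and 152 FPKM, with *Tpsb2* and *Mcpt4* at 0 in at least 1 group, and B cell, T cell and erythroid markers each to 13.6 FPKM or less. In bulk RNA, fewer cells of a type and less RNA per cell cannot be told apart, and the part of these cells in the values below was not tested.

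Before treatment, the order of levels among the 10 genes was nearly the same in both genotypes. In untreated WT DCs *Ldha* (569 FPKM) and *Pgk1* (524 FPKM) led with overlapping intervals, followed by *Pfkp* (162 FPKM), whose interval lay below theirs and above that of *Hk3*. *Hk3* (63.9 FPKM), *Slc2a1* (45.5 FPKM), *Slc16a3* (43.9 FPKM) and *Hk1* (37.2 FPKM) formed a middle tier in which each interval overlapped that of the next gene. *Pfkl* (17.4 FPKM), *Hk2* (16.9 FPKM) and *Pfkfb3* (13.0 FPKM) formed the lowest tier, again with overlapping neighbours. In treated WT DCs *Slc2a1* and *Slc16a3* stood above *Hk3*, and the intervals of *Slc16a3* and *Hk3* were apart. The plot of FPKM by group shows the 10 genes side by side.

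**Figure D1:**
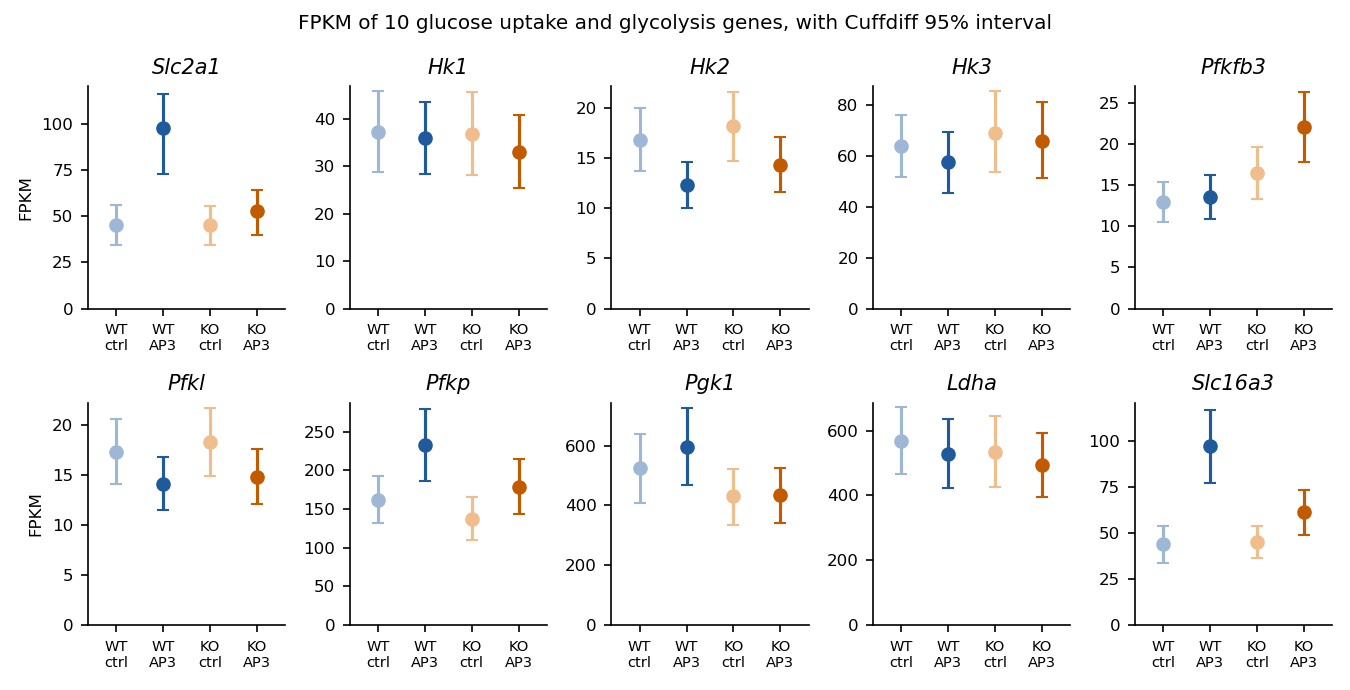
FPKM (vertical axes, linear, starting at 0) of the 10 genes in untreated (ctrl) and ansamitocin-P3-treated (AP3) WT and GEF-H1-/- (KO) DCs; points are the single value deposited for each group and bars its Cuffdiff 95% interval. *Slc2a1* and *Slc16a3* stand at 97.7 and 97.2 FPKM in treated WT DCs, above the other 3 groups, and the other genes differ less between groups.

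Ansamitocin-P3 was accompanied in WT DCs by higher levels of the transporters at both ends of the pathway, *Slc2a1* and *Slc16a3*, while the enzymes between them differed little. These were the only 2 of the 10 genes past the 2-fold threshold, and the same 2 had intervals that lay apart. Over all 11397 genes, 3.66% were past 2-fold higher and 1.28% past 2-fold lower in treated WT DCs, and 16.8% had intervals apart in either direction. The median log2 change of the 10 genes was 0.00, as was that of all genes. In GEF-H1-/- DCs none of the 10 passed 2-fold or had intervals apart, against 1.08% and 3.7% of all genes, and the median log2 change was -0.03 beside -0.01 for all genes. On the deposited scale each of the 10 genes had the same sign of change in both genotypes, 5 of them higher and 5 lower with the drug.

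These levels depend on the scale of the columns. The FPKM of all genes summed to 739523 in treated WT DCs and to between 599331 and 617423 in the other groups. When each column was rescaled to the same sum, the median log2 change of all genes in WT moved to -0.25, the share of higher genes among those past 2-fold in WT went from 74.1% to 34.4%, and neither transporter passed 2-fold. On that scale *Slc2a1* was at 0.82 and *Slc16a3* at 0.86 in WT, which is 1.06 and 1.11 above the median gene, and *Pfkfb3* and *Pgk1* in WT and *Pgk1* in GEF-H1-/- DCs changed sign. The intervals of *Slc2a1* and *Slc16a3* in WT remained apart and higher there, against 4.81% of all genes. Those of *Hk2* and *Pfkl* were then apart and lower, against 17.3% of all genes. The filter of 1 FPKM was applied again after rescaling, so shares of genes on this scale are over 11957 genes and not 11397. The 2 ways of rescaling differed. When columns were scaled instead by the median ratio of genes to untreated WT DCs, both transporters stayed past 2-fold in WT. *Slc2a1* was then at 1.04 and *Slc16a3* at 1.08, and 67.6% of the genes past 2-fold in WT were higher, with 11387 genes left by the filter.

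*Slc2a1* (chr4:119108745-119137329, GRCm38, plus strand) encodes GLUT1, the widely expressed carrier for basal and induced glucose entry. Its level was 45.5 FPKM (34.7–56.0) in untreated and 97.7 FPKM (72.8–117) in treated WT DCs, a 2.15-fold difference (log2 change 1.09). Without GEF-H1 it was 45.3 FPKM (34.4–55.4) without and 53.1 FPKM (40.1–64.4) with the drug, 1.17-fold, with a log2 change of 0.22. The untreated groups were alike in level, and the interval of the treated WT group lay above those of the other 3. With columns of equal sum the intervals of treated WT and treated GEF-H1-/- DCs overlapped, while those of the WT groups stayed apart. As deposited, the nearest bounds of the WT groups differed 1.30-fold, a gap that depends on the scale of the columns. The log2 change in WT exceeded that in GEF-H1-/- DCs by 0.86, a difference of changes that carries no interval in the table.

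*Slc16a3* (chr11:120948484-120959000, plus strand) encodes MCT4, a lactate exporter typical of cells with high glycolysis. Its level went from 43.9 FPKM (34.0–54.0) to 97.2 FPKM (77.3–117) in WT DCs, 2.21-fold (log2 change 1.13). Without GEF-H1 it went from 45.3 FPKM (36.6–54.0) to 61.3 FPKM (49.0–73.5), 1.35-fold with a log2 change of 0.43. As with *Slc2a1*, the untreated groups nearly coincided, and treated WT lay above the other 3 groups with intervals apart, on the equal-sum scale from untreated WT but not from treated GEF-H1-/- DCs. As deposited, the intervals of the GEF-H1-/- groups overlapped, while the nearest bounds of the WT groups differed 1.43-fold, a gap that also depends on the scale. The log2 changes of the genotypes differed by 0.70.

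Because HIF-1 is known to bind the core letters ACGTG or GCGTG, the promoters of the members were read for them. RefSeq windows (GRCm38.p6) of 300 bases, 250 before and 50 after a start site, were matched by symbol for all 10 genes, 13 windows in all. ACGTG or GCGTG, on either strand, was present in 12 of the 13 windows, at least once for every gene, while 43.8% of 32851 windows of the same length held it. ACGTG alone was in 9 and GCGTG in 7 of the 13, against 19.6% and 32.4% of all windows. The member windows had a GC content between 49.0% and 73.3%, with a median of 64.7%, where the median of all windows was 52.7%, and these letters are themselves rich in G and C. The 250 bases before the start are shown 5′ to 3′ on the gene's strand for *Slc2a1* and *Slc16a3*, which were past 2-fold in WT, and for *Ldha* and *Hk2*, which were not. Capitals mark ACGTG or GCGTG, written as CACGT or CACGC where they lie on the opposite strand, and CACGTG holds ACGTG on both strands.
Slc2a1: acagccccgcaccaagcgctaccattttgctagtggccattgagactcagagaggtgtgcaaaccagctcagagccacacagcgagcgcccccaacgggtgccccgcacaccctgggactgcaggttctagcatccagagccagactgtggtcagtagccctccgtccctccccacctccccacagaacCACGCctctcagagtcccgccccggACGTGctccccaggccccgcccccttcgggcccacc
Slc16a3: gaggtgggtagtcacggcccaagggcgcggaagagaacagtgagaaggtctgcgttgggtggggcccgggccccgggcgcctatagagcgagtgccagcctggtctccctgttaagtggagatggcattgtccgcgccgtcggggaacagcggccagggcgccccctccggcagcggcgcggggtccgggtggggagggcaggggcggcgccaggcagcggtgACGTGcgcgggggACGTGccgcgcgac
Ldha: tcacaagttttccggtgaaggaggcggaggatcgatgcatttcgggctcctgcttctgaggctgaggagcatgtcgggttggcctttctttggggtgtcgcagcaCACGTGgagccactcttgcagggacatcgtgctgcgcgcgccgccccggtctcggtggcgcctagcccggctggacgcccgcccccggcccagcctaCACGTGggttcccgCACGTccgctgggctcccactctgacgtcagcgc
Hk2: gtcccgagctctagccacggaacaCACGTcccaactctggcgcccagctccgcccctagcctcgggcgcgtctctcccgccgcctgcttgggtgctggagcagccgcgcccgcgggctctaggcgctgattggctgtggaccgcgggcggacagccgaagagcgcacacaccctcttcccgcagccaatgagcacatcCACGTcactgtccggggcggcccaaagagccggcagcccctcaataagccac
These lie at chr4:119108495-119108744 (plus strand), chr11:120948817-120949066 (plus strand), chr7:46845554-46845803 (plus strand) and chr6:82774455-82774704 (minus strand). The stretch before *Slc2a1* held ACGTG beginning 36 bases before the start and GCGTG on the opposite strand. The stretch before *Slc16a3* held ACGTG at 27 and 14 bases before the start, and the locus given in the deposited table begins upstream of this window. *Ldha*, whose level differed little between groups, held 5 matches to ACGTG, 4 of them from 2 CACGTG, and *Hk2*, which was lower with the drug, held 2. Matches were thus present both in members past 2-fold with the drug and in members below it, and a match describes letters, not binding.

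The hexokinases, which phosphorylate glucose and so keep it in the cell, were unequal in level and differed little between groups. *Hk3* (chr13:54949432-55021385, minus strand), the form most common in myeloid cells, went from 63.9 FPKM (51.7–76.0) to 57.6 FPKM (45.6–69.5) in WT and from 69.1 FPKM (53.6–85.5) to 65.9 FPKM (51.2–81.2) in GEF-H1-/- DCs. *Hk1* (chr10:62268855-62379908, minus strand), the housekeeping form, stayed between 33.0 and 37.2 FPKM in the 4 groups with all intervals overlapping. *Hk2* (chr6:82725027-82774454, minus strand), the inducible form, was lower with the drug in both genotypes, 16.9 FPKM (13.7–20.0) against 12.3 FPKM (10.0–14.7) in WT and 18.2 FPKM (14.8–21.7) against 14.4 FPKM (11.6–17.1) in GEF-H1-/- DCs. Those are folds of 0.732 and 0.789, and the intervals of treated and untreated cells overlapped in each genotype as deposited. *Hk3* held between 54.2% and 58.2% of the summed hexokinase FPKM, *Hk1* between 29.2% and 34.0%, and *Hk2* between 11.7% and 14.7%. The sum itself was 118 FPKM in untreated and 106 FPKM in treated WT DCs, and 124 and 113 FPKM in the GEF-H1-/- groups.

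At the committed step the isoforms differed in opposite directions. *Pfkp* (chr13:6548157-6648724, minus strand), the platelet-type phosphofructokinase, went from 162 FPKM (131–193) to 233 FPKM (186–279) in WT and from 137 FPKM (110–165) to 179 FPKM (143–214) in GEF-H1-/- DCs, 1.43-fold and 1.30-fold. *Pfkl* (chr10:77986949-78009796, minus strand), the liver type, went from 17.4 FPKM (14.1–20.6) to 14.1 FPKM (11.5–16.8) and from 18.4 FPKM (14.9–21.8) to 14.8 FPKM (12.1–17.6). As deposited, all of these intervals overlapped between treated and untreated cells of the same genotype. *Pfkp* made up 88.8% of the summed phosphofructokinase FPKM in untreated and 93.7% in treated WT DCs, and 86.6% and 91.4% in GEF-H1-/- DCs, while *Pfkl* went from 9.51% to 5.70% and from 11.6% to 7.58%. The shares do not depend on the scaling of the columns.

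*Pfkfb3* (chr2:11471431-11553929, minus strand), which makes the allosteric activator of phosphofructokinase, was the only one of the 10 genes with its highest level in treated GEF-H1-/- DCs. It stood at 13.0 FPKM (10.6–15.4) in untreated and 13.5 FPKM (10.8–16.2) in treated WT DCs, and at 16.5 FPKM (13.3–19.7) and 22.1 FPKM (17.9–26.3) in untreated and treated GEF-H1-/- DCs. The drug was thus accompanied by a 1.04-fold difference in WT and a 1.34-fold difference in GEF-H1-/- DCs, with overlapping intervals in each. *Pfkfb4*, the relative of *Pfkfb3* with the higher level, is not among the 10 genes and held between 56.9% and 64.7% of the FPKM of the 4 PFKFB genes. *Pfkfb3* held 31.3% in untreated and 26.4% in treated WT DCs, and 31.5% and 34.7% in the GEF-H1-/- groups.

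The most abundant members differed little between groups. *Pgk1* (chrX:106187124-106203699, plus strand), which makes the first ATP of the pathway, went from 524 FPKM (407–638) to 596 FPKM (468–724) in WT and from 430 FPKM (336–521) to 434 FPKM (340–526) in GEF-H1-/- DCs. *Ldha* (chr7:46845804-46855627, plus strand), which reduces pyruvate to lactate, went from 569 FPKM (465–673) to 529 FPKM (422–636) and from 535 FPKM (425–646) to 493 FPKM (394–592). Every interval of *Pgk1* and of *Ldha* overlapped those of the other groups. *Ldha* held between 98.6% and 99.4% of the FPKM of the lactate dehydrogenase genes. GENCODE M21 lists 3 pseudogenes named after *Pgk1* and 2 named after *Ldha*, so reads may have been divided among the copies and the levels of both genes are uncertain to that extent. By GENCODE coordinates *Pfkp* (chr13:6579768-6648777) shares 748 bases with *Pitrm1* on the opposite strand, which stood between 12.6 and 17.8 FPKM. *Hk3* (chr13:55005985-55021385) shares 34 bases with *Unc5a*, at no more than 0.185 FPKM. The loci printed above for *Pfkp* and *Hk3* start at lower coordinates than these, and the shared bases were not taken from them. The libraries were stranded, but whether the Cuffdiff step used strand was not stated.

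**Figure D2:**
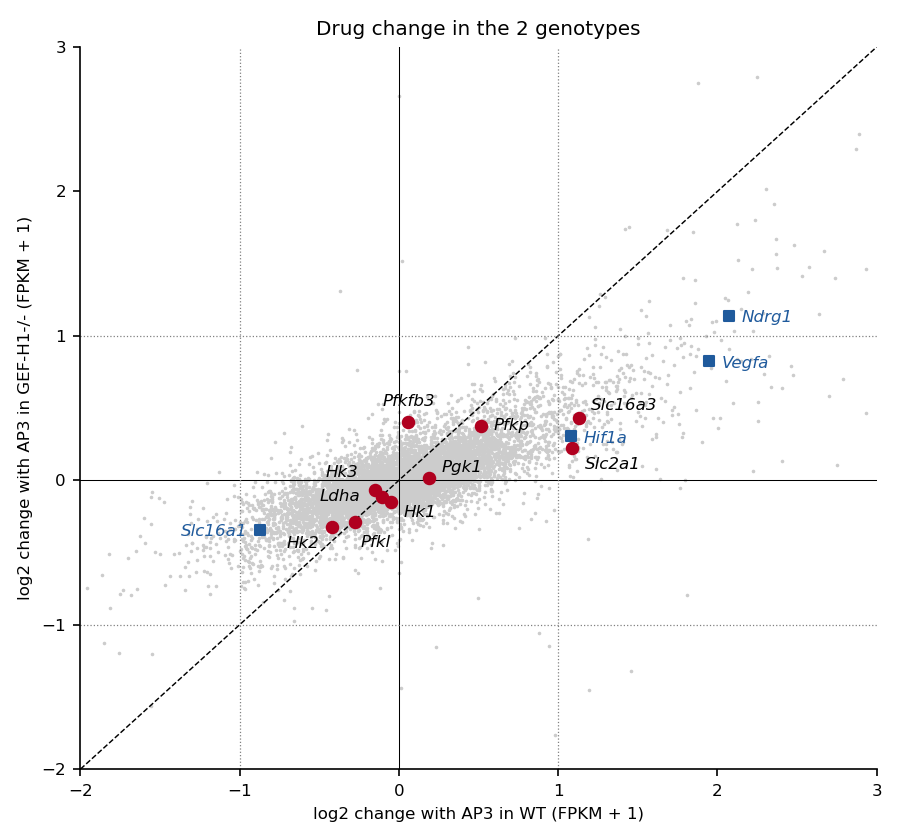
Log2 change with ansamitocin-P3 in WT (horizontal) and GEF-H1-/- DCs (vertical), on the FPKM + 1 scale, for the 10 genes (red), for *Hif1a*, *Vegfa*, *Ndrg1* and *Slc16a1* (blue squares) and for genes that reached 5 FPKM in some group (grey; 67 of 8894 lie outside the axes); dotted lines mark the 2-fold threshold and the dashed line equal changes. *Slc2a1* and *Slc16a3* lie past 1 in WT and at 0.22 and 0.43 in GEF-H1-/- DCs, and *Pfkfb3* lies above the line of equal changes.

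The genotypes were compared directly, without and with the drug. In untreated cells none of the 10 genes passed 2-fold or had intervals apart between GEF-H1-/- and WT DCs, where 1.88% and 4.74% of all genes did, and the log2 differences ran from -0.28 (*Pgk1*) to 0.32 (*Pfkfb3*). *Slc2a1* and *Slc16a3* differed by -0.01 and 0.04 (log2, GEF-H1-/- against WT), and the sign of *Slc2a1* flipped under either rescaling. The log2 change with the drug lay above that of GEF-H1-/- DCs in WT for 7 members and below it for 3, with no difference past 2-fold against 1.9% of all genes. At 1.5-fold, *Slc2a1* and *Slc16a3* passed with the higher change in WT, against 4.83% of all genes in that direction. With columns of equal sum *Slc16a3* was at 0.47 and no longer passed 1.5-fold, and *Slc2a1* was at 0.63. The signs of *Hk1*, *Pfkl*, *Pfkp*, *Pgk1* and *Ldha* in that difference flipped with columns of equal sum, where the median of all genes moved to -0.20 and the share of higher genes among those past 2-fold went from 71.8% to 40.9%.

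Treated GEF-H1-/- DCs were set against treated WT DCs, a comparison added after the values were seen and made of the same 4 columns. No member passed 2-fold, against 4.06% of all genes, and 3 had intervals apart, against 13.7% of all genes. *Slc2a1* was 1.84 times and *Slc16a3* 1.59 times as high in treated WT as in treated GEF-H1-/- DCs. *Pfkfb3* was 1.63 times as high in treated GEF-H1-/- DCs. The nearest bounds differed at most 1.13-fold for these genes, so each gap was narrow. At a threshold of 1.5-fold the same 3 genes passed, against 14.8% of all genes. With columns of equal sum the median of all genes moved from -0.03 to 0.21 in this comparison, and the share of higher genes among those past 2-fold from 49.2% to 78.1%. *Hk1* and *Ldha* flipped sign there. *Slc16a3*, at -0.40, no longer passed 1.5-fold and *Slc2a1* was at -0.61, both with overlapping intervals, which left *Pfkfb3* as the one member apart, against 17.4% of all genes.

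The steps of the pathway that the 10 genes leave out were close to level on the deposited scale. Of 30 further genes for glycolytic enzymes and transporters, 25 passed the filter, and none was past 2-fold with the drug in either genotype. The median of their log2 changes with the drug was -0.06 with GEF-H1 and -0.07 without it. With columns of equal sum the WT median was -0.34, where that of all genes was -0.25. On the deposited scale, 1 had intervals apart and higher in WT and 2 apart and lower, against 9.19% and 7.58% of all genes, and none did in GEF-H1-/- DCs. All 3 called on that scale were transporters. *Slc2a6*, a glucose transporter gene of myeloid cells, went from 45.8 FPKM (36.5–55.0) to 74.9 FPKM (60.6–89.2) in WT and from 52.7 FPKM (43.1–62.3) to 69.9 FPKM (57.0–82.8) in GEF-H1-/- DCs. The nearest bounds of *Slc2a6* in WT differed 1.10-fold, a narrow gap that depends on the scale of the columns. *Slc16a1*, which encodes the monocarboxylate carrier MCT1, went the other way, from 12.0 FPKM (8.73–15.1) to 6.09 FPKM (4.47–7.54) in WT and from 14.6 FPKM (10.6–17.1) to 11.3 FPKM (8.27–14.3) in GEF-H1-/- DCs. *Slc16a7*, the low-abundance carrier MCT2, named here after its values were seen, had a log2 change of -0.55 in WT DCs. The enzymes *Aldoa*, *Gapdh*, *Eno1* and *Pkm* are abundant members of the list, chosen after their values were seen. As deposited, their log2 changes lay between -0.10 and 0.30 in WT and between -0.13 and 0.01 in GEF-H1-/- DCs, with overlapping intervals. With columns of equal sum, *Gapdh* (-0.08) and *Pkm* (-0.01) changed sign in WT, as did *Aldoa* (-0.03) in GEF-H1-/- DCs.

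**Figure D3:**
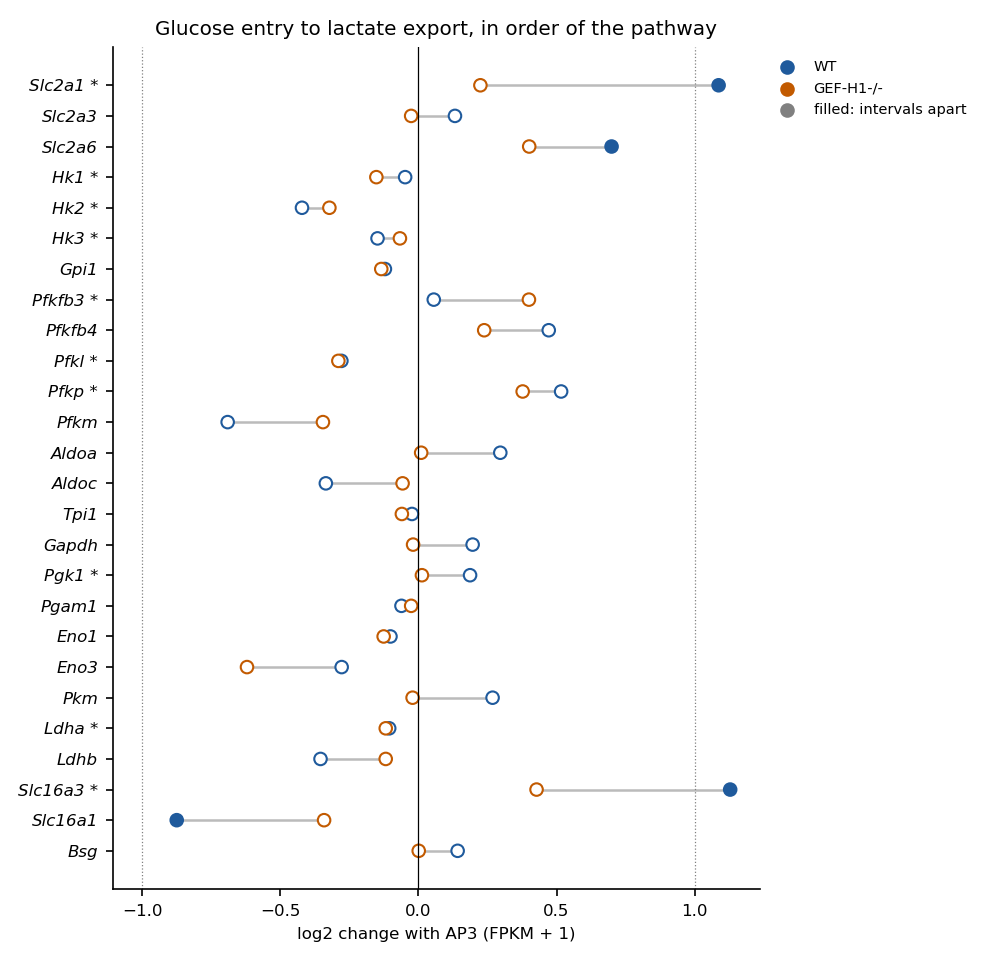
Log2 change with ansamitocin-P3 (horizontal, FPKM + 1) in WT (blue) and GEF-H1-/- DCs (orange) for genes from glucose entry (top) to lactate export (bottom), with the 10 genes marked by an asterisk; filled points mark Cuffdiff intervals of treated and untreated cells that lie apart, and dotted lines the 2-fold threshold. On the deposited scale, filled points are seen only in WT, for *Slc2a1*, *Slc2a6*, *Slc16a3* and *Slc16a1*, and all points for enzymes are open.

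The make-up of the transporter RNA differed between groups as well. *Slc16a3* made up 77.0% of the summed FPKM of *Slc16a1*, *Slc16a3* and *Slc16a7* in untreated WT DCs and 93.7% in treated WT DCs, beside 74.4% and 83.6% in the GEF-H1-/- groups. *Slc16a1*, which in many tissues serves lactate uptake as well as release, held a smaller share, at 21.0% and 5.87% in untreated and treated WT DCs and 23.9% and 15.4% in GEF-H1-/- DCs. Of the 4 glucose transporter genes summed, *Slc2a1* held 43.4% in untreated and 52.4% in treated WT DCs and *Slc2a6* 43.7% and 40.2%. In GEF-H1-/- DCs *Slc2a1* held 41.2% and 39.5% and *Slc2a6* 47.9% and 52.1%. The sum of these glucose transporters was 105 FPKM in untreated and 187 FPKM in treated WT DCs, and 110 and 134 FPKM in GEF-H1-/- DCs.

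**Figure D4:**
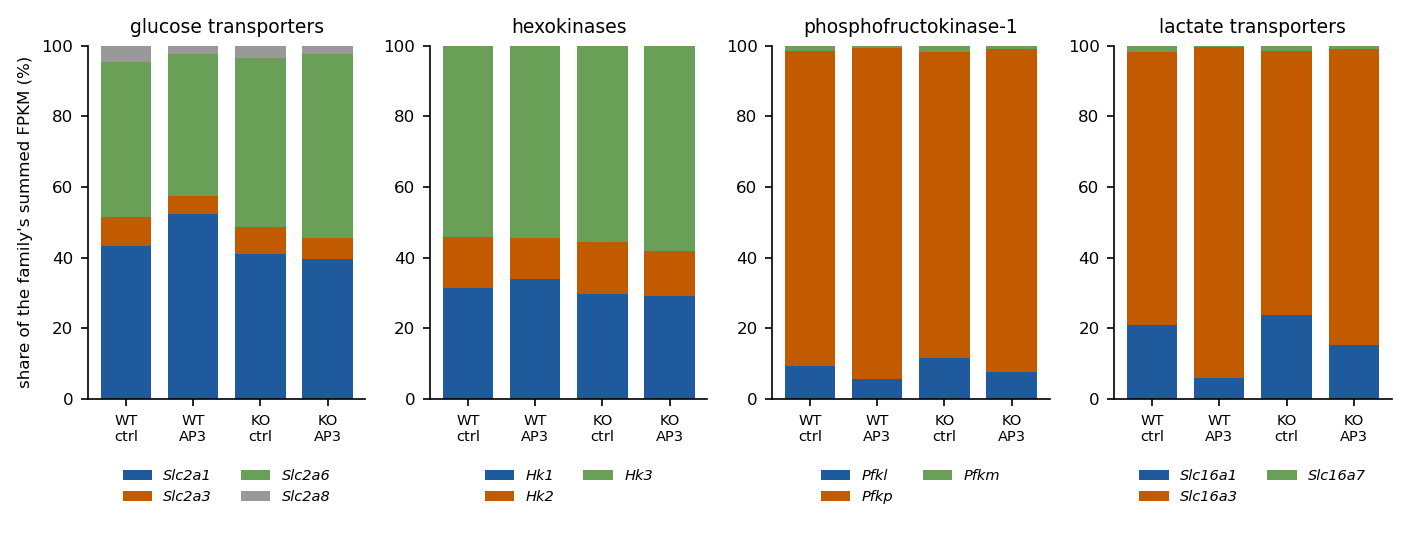
Share of each gene in the summed FPKM of its family (vertical axis, percent, stacked to 100) in the 4 groups, for glucose transporters, hexokinases, phosphofructokinase-1 and lactate transporters; shares carry no error bars, since the table gives no interval for a sum. *Slc16a1* goes from 21.0% to 5.87% of the lactate transporters in WT DCs, and the hexokinase shares stay within a few points of each other.

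Genes that draw on the same sugar or its product were checked from lists of pathway members. For pyruvate entry and the TCA cycle, 30 of 31 genes passed the filter, with a median log2 change of -0.06 in WT DCs and -0.04 without GEF-H1. With columns of equal sum the WT median was -0.34, where that of all genes was -0.25. As deposited, 1 was apart and higher in WT and 4 were apart and lower, beside 9.19% and 7.58% of all genes. *Irg1* (also named *Acod1*), which makes itaconate from a TCA intermediate in activated myeloid cells, went from 5.42 FPKM (4.25–6.59) to 16.1 FPKM (13.0–19.2) in WT and from 8.88 FPKM (7.10–10.6) to 14.2 FPKM (11.5–16.9) in GEF-H1-/- DCs, with intervals apart in both. Its level before the drug was already 1.64-fold higher in GEF-H1-/- than in WT DCs, with intervals apart, while the intervals of the treated groups overlapped. *Fh1*, encoding fumarate hydratase, went from 108 FPKM (83.9–133) to 51.1 FPKM (39.5–61.3) in WT and from 89.1 FPKM (69.0–109) to 64.4 FPKM (49.7–79.0) in GEF-H1-/- DCs, with overlapping intervals in the latter. The other lower genes in WT, named after their values were seen, were the isocitrate dehydrogenase subunit *Idh3a* (log2 change -0.95 with and -0.19 without GEF-H1) and the pyruvate dehydrogenase kinases *Pdk1* (-0.65 and -0.22) and *Pdk2* (-0.57 and -0.59), of which *Pdk2* was also apart in GEF-H1-/- DCs.

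Branches to the pentose phosphate pathway and to glycogen were nearly level on the deposited scale. With columns of equal sum their WT medians were -0.39 and -0.34, where that of all genes was -0.25. As deposited, none of the 7 pentose phosphate genes had intervals apart with the drug. The ends of that list in WT were *Pgd*, an NADPH-forming dehydrogenase, at a log2 change of 0.49 in WT DCs and 0.07 without GEF-H1, and *Rpe* at -0.45 and -0.07. The list medians were -0.11 in both genotypes. Of the 10 glycogen genes that passed, of 11 listed, the medians were -0.07 in WT DCs and -0.14 without GEF-H1, and 2 were apart and lower in WT, beside 7.58% of all genes, *Pgm2* (-0.55, with -0.35 in GEF-H1-/- DCs) and, named after its value was seen, *Epm2a* (-0.69 and -0.43). *Gyg*, the primer of glycogen synthesis, was the highest in WT at 0.26 and stood at -0.16 in GEF-H1-/- DCs. Its value in WT was -0.01 with columns of equal sum.

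Genes of the HIF pathway and further genes known to respond to hypoxia were examined with glycolysis genes left out. The counts thus rest on the make-up of the list. They omit *Slc2a1* and *Slc16a3*, higher in WT with the drug, and *Hk2* and *Ldha*, lower there with overlapping intervals. *Pdk1*, apart and lower in WT, was counted with pyruvate entry. Of 20 genes on the list that passed the filter, 3 were past 2-fold in WT and 6 had intervals apart, as deposited. All of these were higher with the drug, beside 3.66% and 9.19% of all genes in that direction. The log2 change in WT was above 0 for 17 of the 20, with a median of 0.31 beside 0.00 for all genes. With columns of equal sum 11 were above 0 and the median was 0.10, where the median of all genes was -0.25. In GEF-H1-/- DCs the median was 0.05, with 2 of 20 apart and 1 past 2-fold, beside 2.75% and 0.807% of all genes apart and past 2-fold in the higher direction. *Hif1a*, the oxygen-regulated subunit, stood at 50.9 FPKM (38.4–61.6) and 109 FPKM (84.8–132) in untreated and treated WT DCs, and at 50.4 FPKM (38.0–60.9) and 62.5 FPKM (47.7–76.4) in GEF-H1-/- DCs. These levels and folds lay close to those of *Slc2a1* in each group. Genes of close pattern were also found for *Slc16a3*, as given below, but those nearest to *Slc2a1* were not sought. A link between *Hif1a* and *Slc2a1* was not tested. The angiogenic growth factor *Vegfa* went from 3.86 FPKM (2.90–4.83) to 17.8 FPKM (14.3–21.2) in WT and from 6.05 FPKM (4.81–7.29) to 11.5 FPKM (9.22–13.7) in GEF-H1-/- DCs. *Ndrg1*, a stress- and hypoxia-responsive gene, went from 16.1 FPKM (13.1–19.1) to 71.0 FPKM (58.1–84.0) and from 15.1 FPKM (12.2–17.9) to 34.3 FPKM (28.0–40.6). Intervals were apart in both genotypes for *Vegfa* and *Ndrg1*. The windows before *Slc2a1* and *Slc16a3* printed above hold the core letters of HIF-1, as do those of members that differed little. The remaining genes apart in WT, named after their values were seen, were the prolyl hydroxylase *Egln3* (log2 change 0.92 in WT and 0.24 in GEF-H1-/- DCs), *Ankrd37* (0.85 and -0.30) and the histone demethylase *Kdm3a* (0.70 and 0.19). Their nearest bounds in WT differed 1.19-fold, 1.03-fold and 1.09-fold, so these gaps were narrow and depend on the scale of the columns. *Car9*, also named after its value was seen, went the other way at -0.57 and -0.13 with overlapping intervals.

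**Figure D5:**
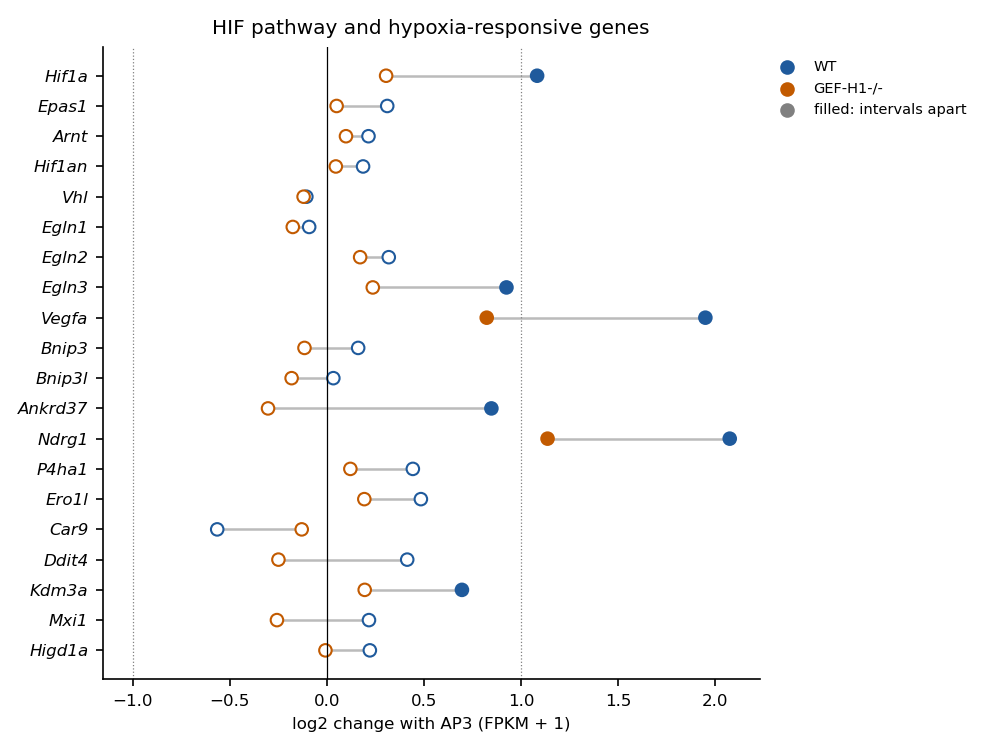
Log2 change with ansamitocin-P3 (horizontal, FPKM + 1) of 20 HIF pathway and hypoxia-responsive genes in WT (blue) and GEF-H1-/- DCs (orange); filled points mark intervals of treated and untreated cells that lie apart, and dotted lines the 2-fold threshold. Filled points are seen, on the deposited scale, for 6 genes in WT and for *Vegfa* and *Ndrg1* in GEF-H1-/- DCs.

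Kinases and regulators known to act on glucose use were described in the same way. Of 22 listed, 21 passed, with medians of 0.21 in WT DCs and 0.14 without GEF-H1, and the WT median was -0.02 with columns of equal sum. As deposited, a single gene was apart in each genotype, where 16.8% of all genes were apart in WT and 3.7% in GEF-H1-/- DCs. *Pik3cb*, a catalytic subunit of PI3 kinase, went from 9.46 FPKM (7.37–11.6) to 15.4 FPKM (12.2–18.6) in WT DCs, and its log2 change without GEF-H1 was 0.30. Its nearest bounds in WT differed 1.06-fold, a narrow gap that depends on the scale of the columns. *Tsc1*, a restraint on mTOR named after its value was seen, had 0.59 in GEF-H1-/- and 0.33 in WT DCs. *Pik3cd* was the lowest of the list in WT at -0.49, with -0.39 in GEF-H1-/- DCs.

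*Slc16a3* had the largest change of the 10 genes in WT, and the genes most like it in pattern were sought by the distance between centred log2 FPKM + 1 values over the 4 groups, among 7001 genes of at least 10 FPKM in a group. Among the 5 nearest were *Exo5* (0.04), *Pdcd1lg2* (0.05), *Sbds* (0.07) and *Pi4k2b* (0.07), where the median distance was 0.89. *Pdcd1lg2*, which encodes the checkpoint ligand PD-L2, stood at 59.1 and 133 FPKM in untreated and treated WT DCs, and at 59.5 and 83.9 FPKM in the GEF-H1-/- groups. *Slc2a1* was nearest of the other members, at 0.20 and rank 81, followed by *Pfkp* at 0.43 and rank 569. A likeness over 4 values rests on few points.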

How the data were processed

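RNA from BMDCs was sequenced by the authors as 8 stranded, paired-end libraries of polyadenylated RNA. The deposited values are FPKM, which the authors computed with Cuffdiff (version 1.05 and mm10 in the submitters' processing notes), 1 per gene and group, with interval bounds in FPKM. The aligner and annotation behind this table are not given in the sources used here. The columns that do not name GEF-H1 were taken as WT, and 0 columns of per-sample values were left unused. Because the table holds 1 value per group, the branch of the design for separate libraries (limma) was not used, and no p-value was computed. The depth of the libraries is unknown, since FPKM does not keep fragment counts, and no counting interval is given.

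Genes with a status other than OK (107 of 23356) or under 1 FPKM in all groups were left out. Log2 ratios of FPKM + 1 were taken in Python 3.11.15 (numpy 2.4.6, pandas 2.3.3) and understate the change of low genes. The computation was tested on simulated data. Alternatives were pseudocounts of 0.1 and 5 FPKM, no filter or 5 FPKM, scaling by median ratio (factors from 0.967 to 1.01) or to the same sum, a 1.5-fold threshold and intervals that do not overlap, the last pair also with columns of the same sum (added after the data were seen). The 10 genes and the lists were chosen with earlier results of these data known. Of each list, genes past 2-fold with the drug at 5 or more FPKM were named, otherwise the highest and lowest in WT. For the member with the largest change in WT, the 5 nearest genes were to be named, of which 1 is not reported here. Loci are those of the deposited table, strands are from GENCODE M21, and promoter sequences from RefSeq.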

Additional observations from a re-analysis of the deposited data

How the results depend on the processing

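Of 96 counts of members recomputed under the alternatives, 84 stayed within 1.5 times the reported count, and in 870 recomputed values of single named genes no gene past 2-fold changed sign. With columns scaled to the same sum, 0 members were past 2-fold higher in WT instead of 2, and the median log2 value of the members moved from 0.00 to -0.27 in WT, from 0.06 to -0.17 in the difference of drug changes and from -0.11 to 0.15 in the treated genotype comparison, where the medians of all genes were -0.25, -0.20 and 0.21. At a 1.5-fold threshold, 2 members had the larger drug change in WT, and 1 member was higher and 2 were lower in treated GEF-H1-/- than in treated WT DCs, instead of 0 each; the interval rule also gave 1 higher and 2 lower in that comparison, which was added after the data were seen. Both rules were also applied with columns of the same sum, after the data were seen. Then 1.5-fold gave 1 member lower in WT, 1 with the larger drug change in WT, and 1 higher and 1 lower between the treated genotypes, and the interval rule gave 2 lower in WT and 1 higher between the treated genotypes. For the other lists, calls by 2-fold and by interval are given on the deposited scale only, and calls with narrow gaps depend on that scale. No paired analysis was possible because the table holds 1 pooled value per group, and leaving out single libraries and a replicate block were not run for the same reason. The Cuffdiff intervals are the only error available, and agreement between the duplicate libraries could not be examined.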

Other observations

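Some genes around glycolysis differed by genotype in both untreated and treated cells. These were chosen after their values were seen. *Fbp1*, which encodes the gluconeogenic fructose 1,6-bisphosphatase that opposes phosphofructokinase, stood at 8.22 FPKM (6.20–10.2) and 6.80 FPKM (5.06–8.48) in untreated and treated WT DCs, and at 19.1 FPKM (14.8–23.4) and 17.2 FPKM (13.3–21.1) in GEF-H1-/- DCs. *Ldhb*, the lactate dehydrogenase subunit that favours pyruvate formation, stood at 3.12 FPKM (2.23–3.98) and 2.23 FPKM (1.55–2.88) in WT, and at 6.66 FPKM (5.05–8.28) and 6.06 FPKM (4.57–7.56) in the GEF-H1-/- groups. The intervals of the genotypes were apart for *Fbp1* and *Ldhb* with and without the drug, while those of treated and untreated cells overlapped. *Myc*, a regulator of glycolysis genes, was apart between the treated groups only, at 49.5 FPKM (40.5–58.4) in WT and 77.4 FPKM (63.4–91.5) in GEF-H1-/- DCs.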
